A study of Mus musculus with 11 samples.

Results

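The 10 genes described here, Fos, Fosb, Jun, Junb, Jund, Egr1, Egr2, Atf3, Ier2 and Nr4a1, are immediate-early genes, taken as a named list out of 19938 genes measured on 11 mouse gene arrays. Each of the 10 was measured by exactly 1 probe set with a single gene symbol, so no choice between probe sets arose. The arrays hold RNA of classical dendritic cells (cDCs) sorted by flow cytometry from C57BL/6 spleen. The groups were CD172a+ cDCs labelled Zeb2-deficient (CKO; 4 arrays), which carried Zeb2 fl/fl and a CD11c-Cre transgene, control CD24+ cDCs (3 arrays), and control CD172a+ cDCs (4 arrays). Control mice carried Zeb2 fl/fl without Cre, so the floxed alleles were common to all groups, while Cre was present in the CKO group alone and loss of Zeb2 cannot be told apart from an effect of the transgene. Cre was driven by CD11c, which other cells of the mouse also express, so the deletion was not limited to the sorted cells. The labels do not tie replicates to separate animals. The p-values therefore measure only how these samples vary, and this variation may be technical.

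Immediate-early genes are transcribed within minutes of a stimulus, without new protein synthesis, because the factors that switch them on are already present in the resting cell and are activated by MAP kinase, calcium, cyclic AMP or stress signalling. Their products are mostly transcription factors that control a later wave of genes, and their mRNAs are short-lived. In many tissues, warm enzymatic digestion and cell sorting are known to induce them, so their levels in sorted cells can reflect handling as well as the state of the cells in the animal. Here every spleen was digested with collagenase B and DNase I at 37 °C, for a time given in the labels as between 30 min and 1 h. The time used for each array is not in the labels, and no undissociated tissue was analysed here, so levels before digestion are unknown.

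The values are log2 expression values, and a difference of 1 is a 2-fold difference. The array medians of log2 expression lay between 5.45 and 5.52. Zeb2 itself read 8.79 ± 0.44 in CKO CD172a+ cDCs and 8.33 ± 0.19 in control CD172a+ cDCs (SD, n = 4 each), so it was not lower in the arrays labelled Zeb2-deficient. Where its probes lie with respect to the floxed exons is unknown here, and every direction given for the CKO group rests on its label. The sorted subsets matched their defining markers. Sirpa, which encodes CD172a, averaged 10.74 in CKO CD172a+, 6.20 in control CD24+ and 10.92 in control CD172a+ cDCs, and the cDC1 receptor gene Xcr1 averaged 5.69, 10.89 and 5.47 in the same order. The arrays also fell into 2 sets that cross the groups, separated by a second principal component with 34.2% of the variance. One set holds replicates 3 and 4 of both CD172a+ groups with CD24+ replicates 2 and 3, and the other holds replicates 1 and 2 of both CD172a+ groups with CD24+ replicate 1. The labels do not name these sets, so they are called array sets and not batches. CD172a+ arrays were placed by replicate number and CD24+ arrays by their score on the second principal component. The sets were therefore read from the same values that are compared below.

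Short DNA motifs known to mediate rapid induction were searched in the promoter windows of the members, defined as 250 bases before to 50 bases after the annotated start of the gene (RefSeq, build GRCm38.p6). Windows were held for 8 of the 10 members, the others being Egr1 and Ier2. The half-site of the cyclic AMP response element, TGACG on either strand, occurred in 6 of these 8 genes (Fos, Fosb, Junb, Egr2, Atf3 and Nr4a1), against 20.8% of 32851 windows of the same length. The serum response factor motif (CArG box, either strand) occurred in Egr2 of the members and in 1.63% of all windows. The variant AP-1 site TGACATCA, on either strand, was found in Jun and in 3.62% of all windows. The full cyclic AMP response element TGACGTCA, which contains the half-site on both strands, was in 0 of the 8 genes and 1.79% of windows, and the AP-1 site TGACTCA in 0 of the 8 and 5.2% of windows. The Jund window held none of the 5 motifs. A match is a description of the letters in these windows and not a measured binding site. The windows below are those of the genes on which the results turn, read 5′ to 3′ on the gene's strand, with motif matches in capitals (the half-site reads CGTCA where it lies on the opposite strand). Egr2 has 5 annotated windows, and the one with the most matches is shown, a choice made after matching. Its count therefore had more chances than that of a gene with 1 window.
Fos, chr12:85473640-85473939, plus strand: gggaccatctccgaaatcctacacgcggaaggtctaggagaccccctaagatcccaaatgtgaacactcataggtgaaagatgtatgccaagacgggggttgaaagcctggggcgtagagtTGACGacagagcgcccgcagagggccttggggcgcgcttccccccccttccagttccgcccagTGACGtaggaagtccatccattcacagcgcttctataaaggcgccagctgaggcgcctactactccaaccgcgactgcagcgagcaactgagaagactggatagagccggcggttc
Jun, chr4:95052173-95052472, minus strand: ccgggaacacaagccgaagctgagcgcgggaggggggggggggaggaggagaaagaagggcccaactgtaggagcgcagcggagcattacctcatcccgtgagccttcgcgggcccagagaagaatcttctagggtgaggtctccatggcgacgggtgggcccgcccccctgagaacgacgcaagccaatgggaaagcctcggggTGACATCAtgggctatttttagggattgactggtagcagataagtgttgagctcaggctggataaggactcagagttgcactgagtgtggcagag
Egr2, chr10:67537619-67537918, plus strand: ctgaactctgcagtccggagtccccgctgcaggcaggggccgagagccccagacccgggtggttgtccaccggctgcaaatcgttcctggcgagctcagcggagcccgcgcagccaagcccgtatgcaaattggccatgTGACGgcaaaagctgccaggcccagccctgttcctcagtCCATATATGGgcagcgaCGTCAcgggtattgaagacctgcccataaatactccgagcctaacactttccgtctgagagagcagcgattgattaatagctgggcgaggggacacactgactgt
Nr4a1, chr15:101266596-101266895, plus strand: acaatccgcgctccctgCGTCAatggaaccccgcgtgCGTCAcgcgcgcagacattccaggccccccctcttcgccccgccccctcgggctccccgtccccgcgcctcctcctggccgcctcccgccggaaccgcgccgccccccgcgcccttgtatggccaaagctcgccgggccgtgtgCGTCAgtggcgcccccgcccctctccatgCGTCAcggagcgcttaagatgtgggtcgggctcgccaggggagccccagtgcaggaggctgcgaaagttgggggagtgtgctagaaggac
Fosb, chr7:19309996-19310295, minus strand: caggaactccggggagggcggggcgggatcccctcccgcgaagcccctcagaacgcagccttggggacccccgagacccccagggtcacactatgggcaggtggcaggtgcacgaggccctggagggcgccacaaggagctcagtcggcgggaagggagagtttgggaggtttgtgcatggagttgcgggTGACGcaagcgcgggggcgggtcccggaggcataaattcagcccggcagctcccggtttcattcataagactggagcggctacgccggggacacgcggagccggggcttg
The first 4 of these genes belong to the members with large differences between replicate pairs, and Fosb to those with small ones. The half-site was found 2 times in Fos, 2 times in Egr2, 4 times in Nr4a1, 0 times in Jun and 1 time in each of Fosb, Junb and Atf3.

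In the CD172a+ arrays, replicates 3 and 4 had lower levels of these genes than replicates 1 and 2, in CKO and control cDCs alike. Of the 10 members, 9 were lower at an adjusted p below 0.05 (limma, group and replicate pair in 1 model, Benjamini-Hochberg adjustment over all genes) and Jund did not pass. Over all genes, 14.4% were lower and 11.4% higher by the same rule, and 25.8% differed in either direction. The members all lie above the median level, where calls were more frequent. Of 9969 genes above that level, tested on their own, 2880 were lower and 1446 higher. The median difference of the members was -1.21, against 0.048 for all genes. The replicate pairs were recognised in these same arrays, so the counts and p-values of this comparison describe the arrays and are no independent test.

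The Fos family encodes AP-1 subunits that bind DNA only as dimers with Jun proteins. Fos, the prototype, read 8.18 and 8.17 in CKO and 8.77 and 7.77 in control CD172a+ replicates 3 and 4, against 11.04 and 10.93 in CKO and 10.61 and 10.71 in control replicates 1 and 2. Every array of replicates 3 and 4 thus lay below every array of replicates 1 and 2, and the span between the sets of values was wider than the spread within either. The means were 8.22 ± 0.41 and 10.82 ± 0.20 (SD, n = 4 each), a difference of -2.60 (SE 0.188, 6.05-fold, adjusted p = 1.29e-05 in limma), the 10th lowest difference of all genes. Fosb, a Fos relative with a strong activation domain, read 9.91 and 10.13 in CKO and 10.51 and 9.99 in control replicates 3 and 4, against 10.78 and 10.72 in CKO and 10.35 and 10.61 in control replicates 1 and 2. Its values overlapped, since control replicate 3 was higher than control replicate 1. The difference of Fosb was -0.48 (SE 0.146, 1.4-fold, adjusted p = 0.0347 in limma), and the call was lost without any 1 of the 4 CKO arrays or without control replicate 2 or 4 (adjusted p from 0.0793 to 0.116).

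Jun proteins are the DNA-binding partners of the Fos family and can also pair with each other. Jun, the strongest activator among them, read 10.22 and 10.25 in CKO and 10.31 and 10.04 in control replicates 3 and 4, against 11.66 and 11.79 in CKO and 11.58 and 11.74 in control replicates 1 and 2. These were among the tightest values of any member, with means of 10.21 ± 0.11 and 11.69 ± 0.09 (SD, n = 4 each) and no overlap. The difference of Jun was -1.48 (SE 0.0927, 2.8-fold, adjusted p = 6.12e-06 in limma). Junb, a weaker activator that can restrain Jun, read 8.36 and 8.15 in CKO and 8.18 and 8.05 in control replicates 3 and 4, against 8.87 and 8.68 in CKO and 8.60 and 8.61 in control replicates 1 and 2. The values did not overlap, but the difference was only -0.51 (SE 0.0901, 1.42-fold, adjusted p = 0.00236 in limma). Jund, which is known to be expressed steadily in resting cells and to depend little on stimulation, read 8.03 and 8.35 in CKO and 8.52 and 8.33 in control replicates 3 and 4, against 8.50 and 8.48 in CKO and 8.36 and 8.65 in control replicates 1 and 2. Its values overlapped and the difference of -0.19 (SE 0.111, 95% interval -0.44 to 0.06) did not pass (adjusted p = 0.235 in limma).

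Atf3, a stress-induced member of the ATF/CREB family that dimerises with Jun proteins, read 10.97 and 11.12 in CKO and 11.25 and 10.96 in control replicates 3 and 4, against 12.16 and 12.18 in CKO and 12.14 and 12.38 in control replicates 1 and 2. No array of the first set of values reached the second, and the difference was -1.14 (SE 0.0992, 2.2-fold, adjusted p = 3.6e-05 in limma). Ier2, a short nuclear protein named for its immediate-early induction, read 7.29 and 7.98 in CKO and 8.28 and 7.46 in control replicates 3 and 4, against 9.49 and 9.41 in CKO and 9.44 and 9.71 in control replicates 1 and 2. Replicates 3 and 4 scattered more (7.75 ± 0.46) than replicates 1 and 2 (9.51 ± 0.14; SD, n = 4 each), and control replicate 3 was the highest of the lower arrays, as it was for Fos, Fosb, Jun, Jund, Atf3 and Nr4a1. The difference of Ier2 was -1.76 (SE 0.19, 3.38-fold, adjusted p = 0.000124 in limma).

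Egr1 and Egr2 are zinc-finger transcription factors that are induced by growth factors and, in myeloid cells, by differentiation and inflammatory signals. Egr1 read 8.95 and 9.28 in CKO and 9.02 and 8.55 in control replicates 3 and 4, against 10.41 and 10.46 in CKO and 10.05 and 10.33 in control replicates 1 and 2. Egr2 read 10.04 and 10.08 in CKO and 10.06 and 9.63 in control replicates 3 and 4, against 11.24 and 11.19 in CKO and 11.23 and 11.23 in control replicates 1 and 2. Neither gene overlapped between the replicate pairs, and the 4 arrays of replicates 1 and 2 were closest together for Egr2 (SD 0.02). The differences were -1.36 for Egr1 (SE 0.126, 2.57-fold, adjusted p = 4.97e-05) and -1.27 for Egr2 (SE 0.108, 2.41-fold, adjusted p = 3.29e-05, both in limma).

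Nr4a1, the orphan nuclear receptor Nur77, which in lymphocytes is induced by antigen receptor signalling, read 10.63 and 10.94 in CKO and 11.27 and 10.59 in control replicates 3 and 4, against 12.05 and 12.03 in CKO and 11.93 and 12.03 in control replicates 1 and 2. Values did not overlap, with a difference of -1.15 (SE 0.144, 2.23-fold, adjusted p = 0.000291 in limma). In all, 8 of the 10 members did not overlap between the replicate pairs, Fosb and Jund being the others, while 14.1% of all genes lay lower without overlap. Replicate pair held 95.5% of the sum of squares over the 8 CD172a+ arrays for Fos, 98.5% for Jun, 96.5% for Atf3, 59.4% for Fosb and 30.6% for Jund, against a median of 32.9% over all genes.

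**Figure D1:**
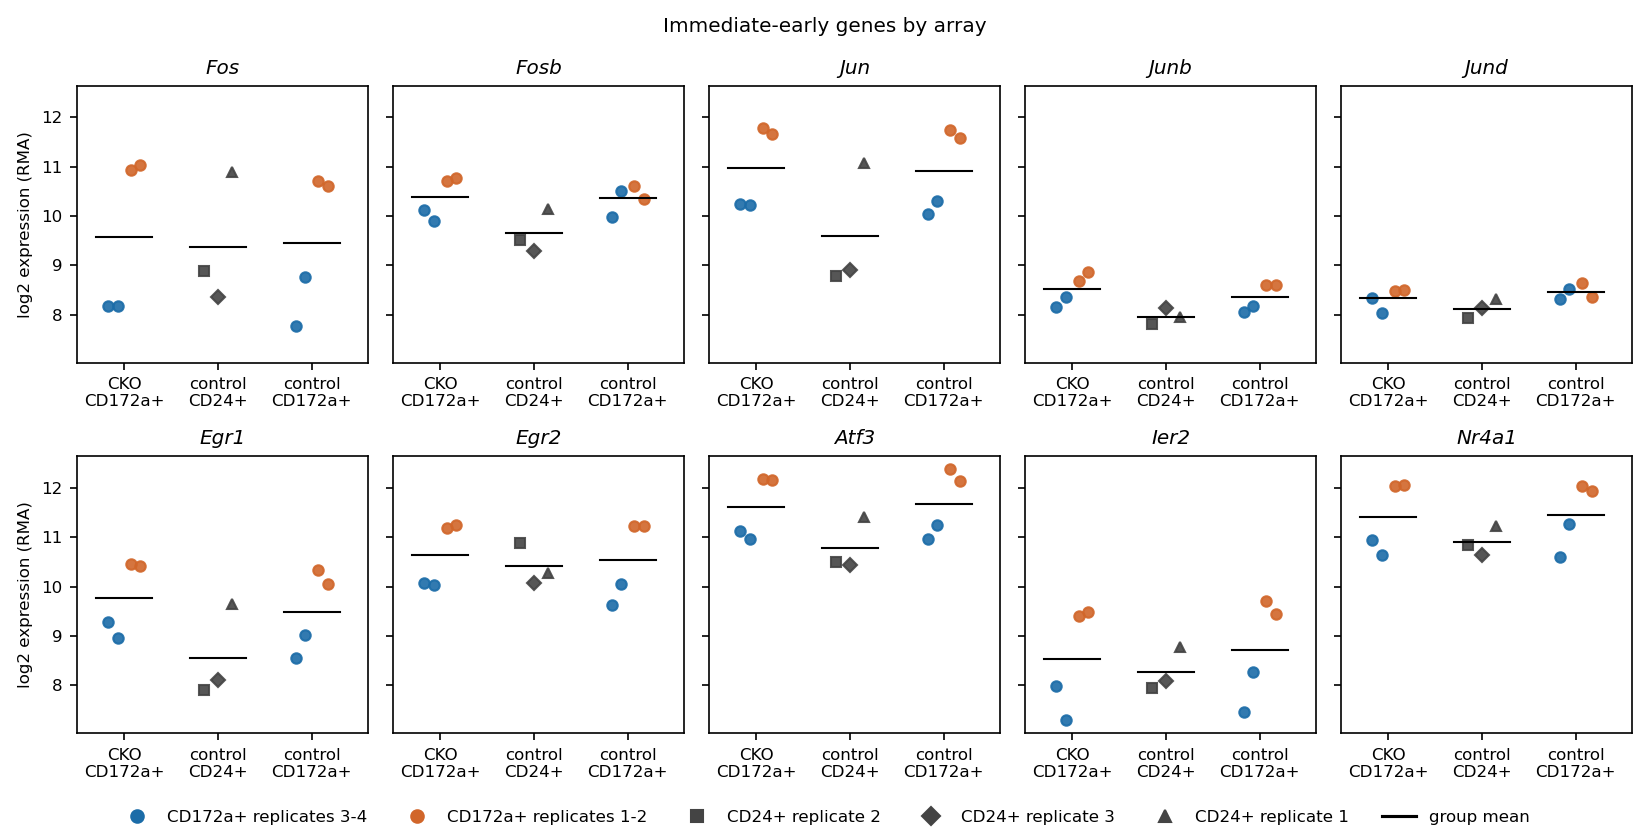
Log2 expression (RMA, vertical axis) of the 10 immediate-early genes on each array, by group, with CD172a+ replicates 3 and 4 in blue, replicates 1 and 2 in orange, CD24+ arrays in grey and group means as lines. For 8 genes the blue points of both CD172a+ groups lie below all orange points, and for Fosb and Jund they overlap; levels of different genes come from different probe sets and are not compared.

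The members differed in how far they were apart. Ordered from the widest to the narrowest gap, they were Fos, Ier2, Jun, Egr1, Egr2, Nr4a1, Atf3, Junb, Fosb and Jund. Neighbours in this order were compared through the difference of the 2 genes within each array. The order comes from these same arrays, so the sign of each difference was fixed in advance. The intervals are not adjusted for the number of comparisons. The gap of Fos was wider than that of Ier2 by 0.84 (95% interval 0.38 to 1.30), that of Atf3 wider than that of Junb by 0.63 (0.35 to 0.92) and that of Fosb wider than that of Jund by 0.29 (0.03 to 0.55). From Ier2 to Atf3 no neighbours could be told apart, the differences lying between 0.02 and 0.27 with intervals that include 0, and neither could Junb and Fosb. Genes that are not neighbours were not compared in this way.

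The gap was present within each genotype. Replicates 3 and 4 minus replicates 1 and 2 gave -2.80 in CKO and -2.39 in control cDCs for Fos, and -1.81 and -1.70 in the same order for Ier2. For Jun the 2 values were -1.49 in CKO and -1.48 in control cDCs, for Atf3 -1.13 and -1.15, and for Egr2 -1.16 and -1.39. Fosb showed the most uneven pair, with -0.73 in CKO and -0.23 in control cDCs. A direct test of the difference of the gaps between CKO and control cDCs called 0 of the 10 members, with adjusted p from 0.812 to 0.996 in limma, and 0% of all genes. At an unadjusted p below 0.05 it held 0 members and 1258 genes. The differences of the gaps were -0.50 for Fosb (SE 0.257) and -0.42 for Fos (SE 0.37), and with 4 residual degrees of freedom differences of such a size were not resolved.

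In CD24+ cDCs, the subset called cDC1, 2 arrays fall in the set of the CD172a+ replicates 3 and 4, and 1 in the other. Fos read 8.88 and 8.37 in CD24+ replicates 2 and 3, against 10.89 in replicate 1, and Jun read 8.79 and 8.91 against 11.07. Both followed the pattern of the CD172a+ arrays, with differences of -2.27 for Fos and -2.22 for Jun. Egr1 (-1.65), Atf3 (-0.95), Ier2 (-0.75), Fosb (-0.72), Nr4a1 (-0.49) and Jund (-0.29) were also lower in replicates 2 and 3. Egr2 did not follow it, with 10.89 and 10.08 in replicates 2 and 3 against 10.27 in replicate 1 (0.21), nor did Junb, with 7.81 and 8.13 against 7.96 (0.01). With a single array in one set, these CD24+ differences have no test. The CD24+ arrays were also placed in the sets by these same values, so their likeness to the CD172a+ arrays is no independent repeat.

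**Figure D2:**
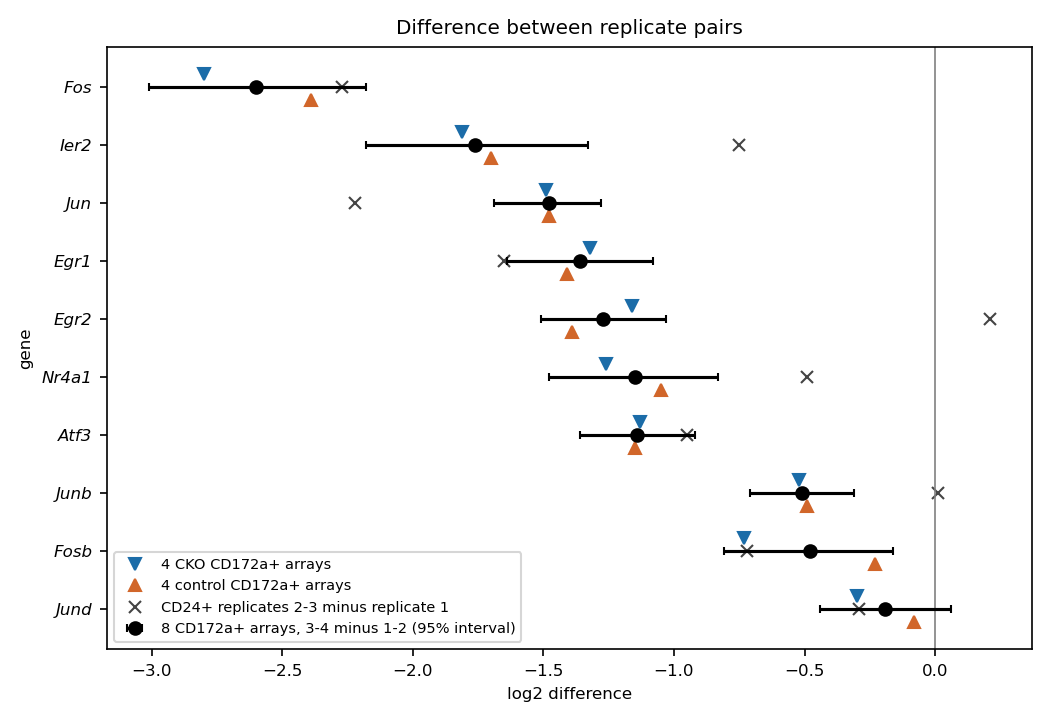
Log2 difference between replicate pairs (horizontal axis) for each gene, ordered from the widest to the narrowest gap, over the 8 CD172a+ arrays with the 95% interval of limma, and within 4 CKO arrays, within 4 control arrays and within the CD24+ arrays (replicates 2 and 3 minus replicate 1). The intervals of 9 genes lie below 0, that of Jund includes 0, and the CD24+ crosses of Egr2 and Junb lie at 0.21 and 0.01.

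The members moved together from array to array. After the group means were removed, Pearson's r over the 11 arrays ranged from 0.37 (Jund with Egr2) to 0.99 in the 45 pairs of members, with a median of 0.85. The closest pairs were Fos with Atf3, Ier2 with Nr4a1 and Jun with Egr1, each at 0.99. These correlations share the arrays and the 2 array sets and are given as a description. Many other genes had the same pattern, since 1108 of 9451 candidate genes above the median level (11.7%) had an r above 0.9 with the members' mean deviation. The 8 genes with the highest r over the 11 arrays were Tagap (0.996), Hadha (0.995), Nfkbid (0.995), Mdh2 (0.994), Trim30a (0.994), Arhgap45 (0.993), Ppp2r1a (0.993) and Cd22 (0.993).

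Close relatives of the members did not all move the same way between the replicate pairs. They are named here after their values were seen. Nr4a3, the paralog of Nr4a1 also called Nor1, was higher in replicates 3 and 4 (1.35, adjusted p = 7.49e-06 in limma), and so was Nr4a2 (0.98, adjusted p = 0.000862). The Fos relatives Fosl1 (0.75, adjusted p = 0.000567) and Fosl2 (1.04, adjusted p = 0.00414) were higher too, opposite to Fos and Fosb. Egr3 (0.17, adjusted p = 0.548) and Egr4 (-0.02, adjusted p = 0.9) did not pass. Opposite signs thus occurred within the Nr4a and the Fos families.

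Of 30 other immediate-early genes, 11 were higher and 6 lower in CD172a+ replicates 3 and 4. Their median difference of 0.05 was that of all genes (0.048). For this and the following lists, the shares over all genes were 11.4% higher and 14.4% lower. The other immediate-early genes that were lower included Klf6 (-1.12, adjusted p = 3.49e-05) and Klf2 (-0.85, adjusted p = 0.000215), which are Krüppel-like transcription factors. Among 24 feedback regulators and mRNA decay factors, which shut the early response off, 7 were higher and 11 lower (median -0.25). Dusp6, a phosphatase that inactivates ERK, differed by -1.45 (adjusted p = 1.26e-05), Nfkbid, a nuclear regulator of NF-kappa-B, by -1.61 (adjusted p = 2.34e-05), and Spred1, an inhibitor of Ras signalling to ERK, by 1.92 (adjusted p = 1.34e-06). Of 21 measured kinases and factors upstream of the early response, 6 were higher and 6 lower (median -0.10), with the kinase Braf at 1.92 (adjusted p = 6.49e-06), the cyclic AMP-responsive factor Crem at 1.95 (adjusted p = 1.12e-05) and the p38 kinase Mapk14 at -0.74 (adjusted p = 0.000337). Among 19 measured AP-1 partners, 5 were higher and 3 lower (median 0.06), with Jdp2, a Jun dimerisation partner that represses AP-1 targets, at 1.87 (adjusted p = 2.77e-05), Nfe2l2 at 0.77 (adjusted p = 0.00353) and Atf4, a factor of the integrated stress response, at -0.60 (adjusted p = 0.00388). All of these p-values are from limma.

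Of the 6 related lists, heat shock genes had the median nearest to that of the members. Of 13 measured genes, 9 were lower and 1 higher in replicates 3 and 4, with a median of -0.66. The chaperone genes Hsph1 (-3.09, adjusted p = 2.34e-06), Hspa1a (-2.72, adjusted p = 6.04e-06) and Dnajb1 (-2.31, adjusted p = 2.11e-06), all known to be induced by heat and proteotoxic stress, were among the 9 (limma). The called gene that was higher was Bag3, a co-chaperone (0.42, adjusted p = 0.0261). Hspa1b, a near-identical copy of Hspa1a, was not measured here, and hybridisation may not separate the copies. Of 12 inflammatory early genes, 3 were higher and 4 lower (median -0.18). They include, named after their values were seen, the chemokine genes Ccl4 (-1.70, adjusted p = 1.12e-05) and Ccl3 (-1.22, adjusted p = 5.35e-05), and the cytokine gene Il6 (higher, adjusted p = 3.93e-05), whose mean of 3.61 in replicates 1 and 2, against 6.13 in replicates 3 and 4, lay below the median of the arrays, so its difference is not an exact ratio.

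**Figure D3:**
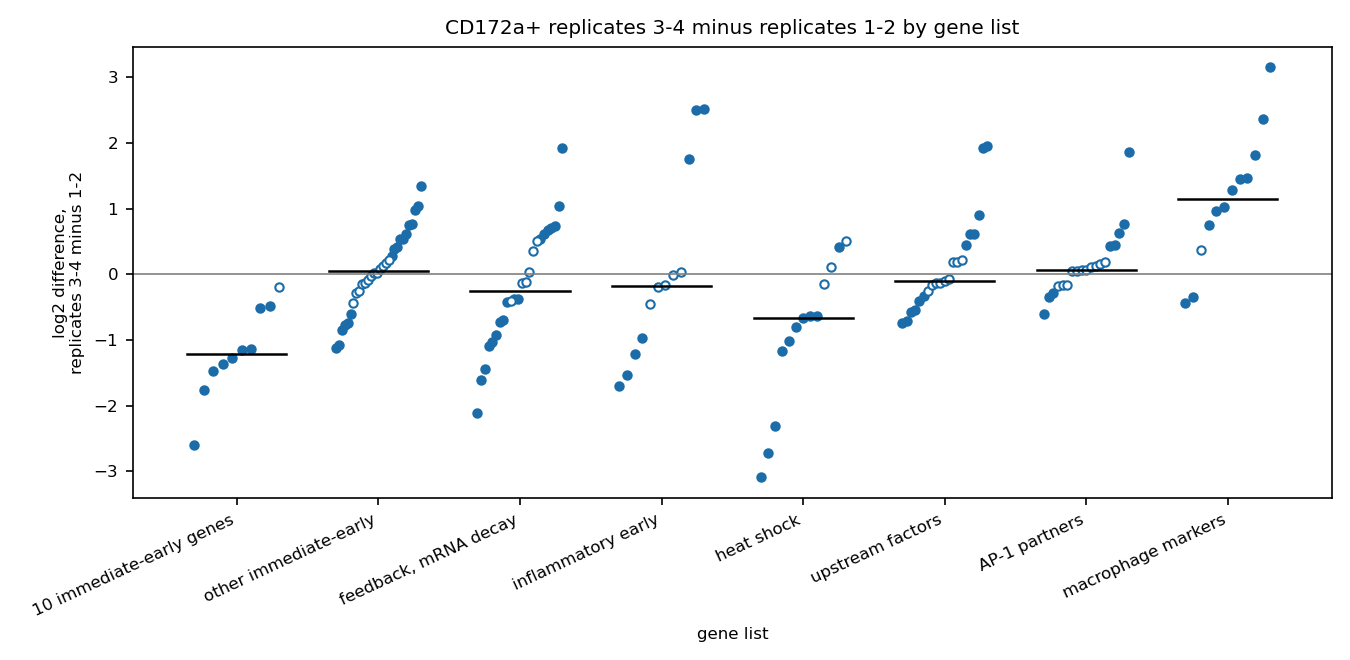
Log2 difference of CD172a+ replicates 3 and 4 minus replicates 1 and 2 (vertical axis) for each measured gene of the 10 immediate-early genes, 6 related lists and the splenic macrophage markers, with filled points for adjusted p below 0.05 in limma, open points for the others and lines at list medians. The members' median lies at -1.21, that of the heat shock genes at -0.66, that of other immediate-early genes at 0.05 and that of the macrophage markers at 1.15.

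Markers of cell types also differed between the replicate pairs, where 14.4% of all genes were lower and 11.4% higher by the same rule. Of 12 splenic macrophage markers, 9 were higher in CD172a+ replicates 3 and 4, such as the complement gene C1qc (3.15) and the adhesion molecule gene Vcam1 (2.37), and 2, Adgre1 and Cd68, were lower. The mean log2 level of these 12 markers was 7.01 to 7.35 in replicates 3 and 4, against 6.00 to 6.19 in replicates 1 and 2 of the CD172a+ arrays. In CD24+ cDCs it was 6.03 and 6.04 in replicates 2 and 3, against 5.55 in replicate 1. Of 8 cDC2 markers, 1 was higher and 6 were lower in replicates 3 and 4, with list means of 8.17 to 8.39 against 8.65 to 8.75 in replicates 1 and 2. Of 5 markers common to cDCs, 2 were lower, with list means of 9.51 to 9.89 against 10.08 to 10.29. Of 7 monocyte markers 3 were higher and 0 lower, led by Cd14, a co-receptor for bacterial lipopolysaccharide (3.32, adjusted p = 2.14e-06 in limma), with list means of 7.84 to 8.65 against 7.15 to 7.95. Of 7 B cell markers 3 were lower, such as Cd79b (-1.43), with list means of 4.76 to 5.39 against 5.15 to 5.78. Of 9 cDC1 markers 4 were higher and 2 lower, and of 6 NK cell markers 2 were higher. Of 7 pDC markers 1 was lower, near the share of all genes, and of 4 erythroid and platelet markers 1 was higher. Of 7 neutrophil and 6 T cell markers 0 were called. The part of other cells, RNA quality or handling in the gap of the immediate-early genes was not tested, and with bulk RNA a change in the share of cells and a change in RNA per cell cannot be told apart.

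The comparison of CKO with control CD172a+ cDCs asks whether loss of Zeb2, a zinc-finger repressor of transcription, in cells expressing CD11c changed these genes. It called 0 of the 10 members in limma over all 11 arrays, with adjusted p = 0.998 for each, where 0.0502% of all genes were called. At an unadjusted p below 0.05 there were 0 members and 773 genes. With the replicate number as a block, 0 members and 26 genes passed, against 10 genes without it. Fos averaged 9.58 ± 1.62 in CKO and 9.46 ± 1.44 in control CD172a+ cDCs (SD, n = 4 each), a difference of 0.12 with a 95% interval of -1.87 to 2.11. The interval is wide because both groups span the replicate pairs. Egr1 had the highest difference, with 9.78 ± 0.78 in CKO and 9.49 ± 0.84 in control cDCs (0.29, SE 0.519), and Ier2 the lowest, with 8.54 ± 1.08 and 8.72 ± 1.04 (-0.18, SE 0.579). For Jun the means were 10.98 ± 0.86 in CKO and 10.92 ± 0.86 in control cDCs, for Atf3 11.61 ± 0.65 and 11.68 ± 0.68, and for Nr4a1 11.41 ± 0.74 and 11.46 ± 0.67 in the same order. The values of the 2 groups overlapped for all 10 members, while 1.09% of all genes lay higher and 1.01% lower without overlap.

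Taking the array set into the model as a block, an alternative tried alongside the main fit, narrowed these intervals without calling any member. Standard errors fell to between 0.0957 and 0.263, the adjusted p ranged from 0.519 to 0.98, and 0.145% of all genes were called. Fos then had a difference of 0.12 with an interval of -0.30 to 0.54, and Egr1 of 0.29 with an interval of 0.01 to 0.56, which did not survive adjustment over all genes. Within replicates 3 and 4, Egr1 was 0.33 higher in CKO than in control cDCs, and within replicates 1 and 2 it was 0.24 higher. For Fos the values were -0.09 and 0.33, for Fosb -0.23 and 0.27, and for Nr4a1 -0.15 and 0.06 in the same order, so the sign changed between the replicate pairs. None of the 6 related lists had a member called in this comparison, with or without the block. Some cell type markers were called. Of 7 B cell markers 1 was higher in CKO cDCs without the block and 2 with it. Their list means were 5.31 to 5.78 in CKO and 4.76 to 5.23 in control cDCs. Of 7 monocyte markers 1 was lower without the block and 2 with it (7.15 to 7.88 in CKO, 7.77 to 8.65 in control). Of 7 pDC markers 1 was higher in either fit. The part of other cells here was not tested. A difference of 1 between these groups lies outside the interval with the block for all 10 members, but the block was read from these same arrays. Without it, the intervals of Fos (-1.87 to 2.11), Jun (-1.26 to 1.39), Egr1 (-0.86 to 1.43), Egr2 (-0.83 to 1.02) and Ier2 (-1.46 to 1.09) include 1. A difference of that size is therefore not excluded for these genes.

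The comparison of CD24+ with CD172a+ cDCs of control mice addresses the difference between the subsets. Over all arrays it called 0 of the 10 members in limma, where 6.41% of all genes were called and 2 members and 3168 genes passed an unadjusted p below 0.05. All 10 differences were negative, with a median of -0.50 against -0.017 for all genes. The groups are split unequally over the array sets, with only CD24+ replicate 1 in the set where most members were high. With the array set as a block, 8 of the 10 were negative, with a median of -0.36 against -0.025 for all genes. The members moved together across arrays, so their signs are not independent. With the replicate number as a block, 0 members and 762 genes passed, against 1278 genes without it. CD24+ replicate 2 and CD172a+ replicate 2 lie in different array sets, so this block joins arrays across the sets. Jun averaged 9.59 ± 1.28 in 3 CD24+ arrays and 10.92 ± 0.86 in 4 CD172a+ arrays (mean and SD), a difference of -1.33 (SE 0.649, adjusted p = 0.366). Fosb averaged 9.65 ± 0.43 in CD24+ and 10.37 ± 0.27 in CD172a+ cDCs, a difference of -0.71 (SE 0.258, adjusted p = 0.168). Fos was nearly level, with 9.38 ± 1.33 in CD24+ and 9.46 ± 1.44 in CD172a+ cDCs. Jund was the only member whose arrays did not overlap (7.93 to 8.32 in CD24+, against 8.33 to 8.65 in CD172a+ cDCs), while 7.43% of all genes lay lower without overlap.

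With the array set as a block, 4 of the 10 members were lower in CD24+ cDCs and the other 6 did not pass. By the same fit 6.9% of all genes were lower and 15.4% were called in either direction. Because the sets were read from these same values, the smaller standard errors and the calls depend on that placement and are no independent test. Jun was lower by a fitted difference of -1.05 (SE 0.149, 2.07-fold, adjusted p = 0.000363), Atf3 by -0.72 (SE 0.104, 1.65-fold, adjusted p = 0.000398), Egr1 by -0.69 (SE 0.137, 1.62-fold, adjusted p = 0.00389) and Fosb by -0.62 (SE 0.155, 1.54-fold, adjusted p = 0.0162), all in limma. Within each set the sign held for these 4, but also for members that did not pass. In the second and the first set these were Junb (-0.14 and -0.65), Jund (-0.40 and -0.18) and Nr4a1 (-0.19 and -0.75). The share of all genes that keep their sign was not computed. Jun was 1.33 below in CD24+ replicates 2 and 3 against control CD172a+ replicates 3 and 4 (8.79 and 8.91, against 10.31 and 10.04) and 0.59 below in CD24+ replicate 1 against control CD172a+ replicates 1 and 2 (11.07, against 11.58 and 11.74). No Jun value of a CD24+ array reached those of the CD172a+ arrays of its own set. On the second set alone (chosen after seeing the data), Jun (-1.33, adjusted p = 0.00221), Atf3 (-0.64, adjusted p = 0.0357) and Fosb (-0.84, adjusted p = 0.0494) passed in limma and Egr1 did not (adjusted p = 0.0636), where 3.64% of all genes were lower.

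The other members did not pass between the subsets. With the block, Fos differed by 0.33 (adjusted p = 0.373), Ier2 by -0.20 (0.701), Nr4a1 by -0.39 (0.207), Junb by -0.33 (0.126) and Jund by -0.30 (0.112), the values in parentheses being adjusted p of limma. Egr2 differed by 0.03 (adjusted p = 0.974), and its sets were opposed, with 0.64 in CD24+ replicates 2 and 3 against control CD172a+ replicates 3 and 4 and -0.96 in CD24+ replicate 1 against control CD172a+ replicates 1 and 2. That opposition was not tested. Ier2 was likewise 0.15 and -0.81 in the same order. Fos was 0.35 and 0.23, so among the AP-1 genes Jun, Fosb and Atf3 were lower in CD24+ cDCs with the block while Fos had a positive difference that did not pass.

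**Figure D4:**
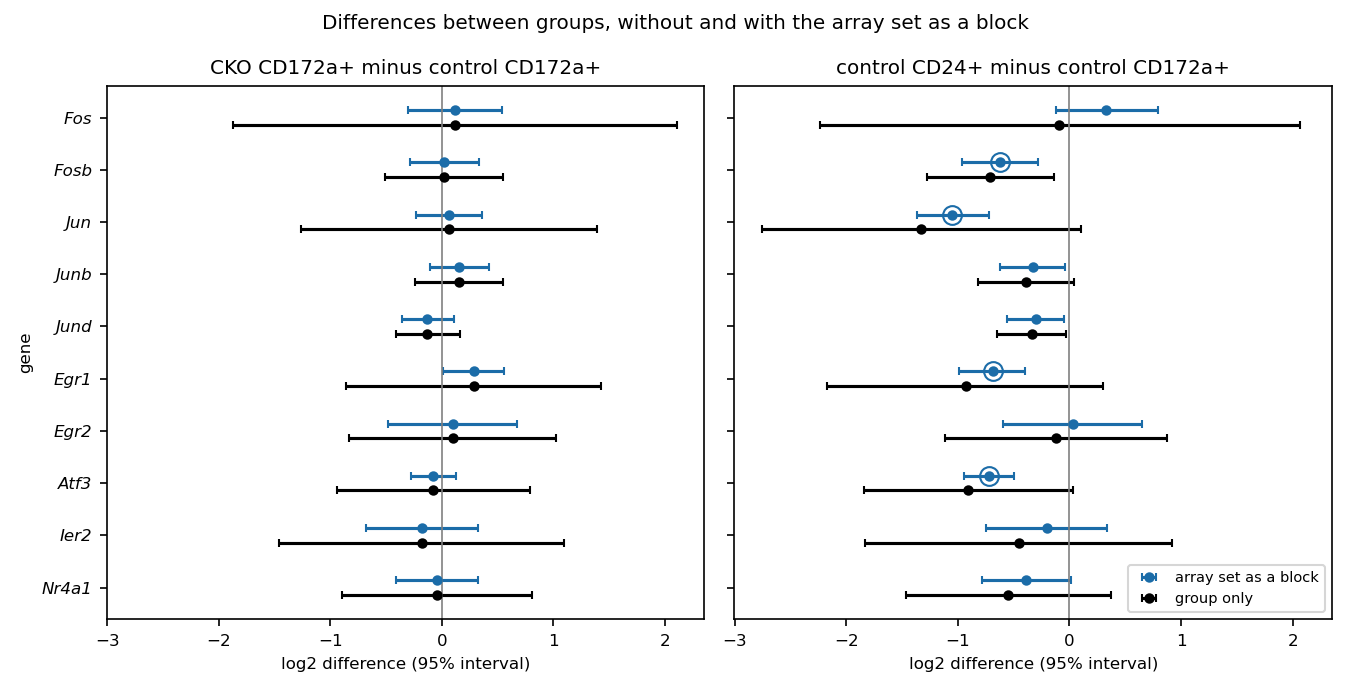
Log2 differences (horizontal axis) with 95% intervals of limma for each gene between CKO and control CD172a+ cDCs (left) and between CD24+ and CD172a+ cDCs of control mice (right), in blue with the array set as a block and in black with group only. Rings mark adjusted p below 0.05, which with the block are Fosb, Jun, Egr1 and Atf3 on the right and none on the left.

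CKO CD172a+ cDCs were also compared with control CD24+ cDCs, whose arrays are common to this comparison and the previous one. Over all arrays 0 of 10 members were called, where 7.17% of all genes were, and all 10 differences were positive. With the array set as a block 9 of them were positive. With the replicate number as a block, Fosb alone passed (0.82, adjusted p = 0.0462 in limma), where 2.75% of all genes were higher. That block joins CKO replicate 2 with CD24+ replicate 2, which lie in different array sets, so it is no check of the pairing. Within the first and the second set the Fosb difference was 0.62 and 0.61. The block by array set was again read from these same values. With it, 5 members were higher in CKO CD172a+ cDCs, where 7.52% of all genes were higher. They were Jun (1.11, adjusted p = 0.000208), Egr1 (0.98, adjusted p = 0.000296), Atf3 (0.65, adjusted p = 0.000839), Fosb (0.64, adjusted p = 0.0118) and Junb (0.48, adjusted p = 0.0225). The difference of Fos was -0.22 and did not pass.

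Several of the 30 other immediate-early genes were lower in CD24+ than in control CD172a+ cDCs. Of these, 12 were lower and 1 higher with the block, against 4 lower and 1 higher without it, with medians of -0.43 and -0.45 in that order. Over all 19938 genes, 1375 (6.9%) were lower and 1705 higher with the block, against 630 lower and 648 higher without it. Rhob, which encodes a small GTPase (-1.88, adjusted p = 2.05e-07), and Plk2, a polo-like kinase gene (-2.13, adjusted p = 3.6e-06, both in limma), were among the 12 lower with the block. Of the 24 feedback genes 7 were lower and 1 higher with the block, against 2 lower and 0 higher without it, and of the 21 upstream genes 8 were lower and 1 higher, against 2 lower and 1 higher. Of 13 heat shock genes 5 were higher and 1, Dnajb4 (-2.20, adjusted p = 1.41e-06 in limma), was lower with the block, against 0 higher and 1 lower without it. Markers of cell types differed as well with the block. Of 9 cDC1 markers 9 were higher in CD24+ cDCs, and of 8 cDC2 markers 7 were lower and 1, Clec12a (2.29), higher. Of 12 splenic macrophage markers 5 were lower, such as Adgre1 (-4.50) and C1qc (-2.15), with list means of 5.55 to 6.04 in CD24+ cDCs against 6.00 to 7.35 in control CD172a+ cDCs. Of 7 monocyte markers 4 were lower, such as S100a4 (-3.35) and Csf1r (-2.73), and 1 higher, with list means of 7.06 to 7.54 against 7.77 to 8.65. Of 7 B cell markers 3 were lower, with list means of 4.63 to 4.88 against 4.76 to 5.23. Without the block, 8 cDC1 markers were higher, and 7 cDC2 markers were lower and 1 higher. Without it 1 macrophage marker, 2 monocyte markers and 1 B cell marker were lower, and C1qc did not pass (adjusted p = 0.539 in limma). The part of these cell types in the differences of the immediate-early genes between the subsets was not tested.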

How the data were processed

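RNA of sorted spleen cDCs was measured on 11 Affymetrix arrays. The deposited tables give a log2 expression level for each probe set, which the authors computed with RMA according to the submitters' processing notes. This method corrects background, normalizes quantiles between arrays and summarises probes, and it shrinks differences near background. No version of it and no genome build is named in the labels or file headers. Of 30177 probe sets, 21789 carried 1 gene symbol, 1621 several and 6767 none in the platform annotation. Each of 19938 genes was represented by its one-symbol probe set with the highest mean, a choice that mattered for 999 genes, and 19855 matched RefSeq by Entrez identifier. No pair of arrays had over 5.2% identical values, and all were counted as separate samples.

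Groups and replicate numbers came from titles. limma 3.58.1 (R 4.3.3) was fitted over 11 arrays with group as factor, over the 8 CD172a+ arrays with group and replicate pair, and with their interaction, with Benjamini-Hochberg adjustment over all genes and a two-sided threshold of 0.05. Residual degrees of freedom were 8, 5 and 4. Precision is limited by how few arrays there were. Python 3.11.15 with numpy 2.4.6, pandas 2.3.3 and matplotlib 3.10.9 served for tables and figures. The members, lists, replicate pairs and array sets were chosen with earlier results of these data known. Genes were named by rule: all members, per related list the 3 with the smallest p between replicate pairs and the 2 in each comparison with control CD172a+ cDCs, the 8 most alike in pattern, Zeb2 and subset markers. Others are said to be named after their values were seen. Of 212 list entries, 197 were measured. Alternatives were blocks by replicate number or array set, other gene filters, probe sets and priors, median centring, and leaving out arrays.

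Same-numbered CKO and control CD172a+ arrays deviated together (r 0.442 to 0.68 in 4 pairs), as did other-numbered arrays of the same replicate pair (0.496 to 0.699), while arrays of different replicate pairs gave -0.692 to -0.404. This pairing was seen in the values, since the labels state none, and arrays resembled others of their replicate pair whether or not the number was shared.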

Additional observations from a re-analysis of the deposited data

How the results depend on the processing

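The 9 calls between the replicate pairs held under every filter, prior, probe choice and centring tried, and only that of Fosb was lost when 1 array was left out. For CKO minus control CD172a+ cDCs, 0 members were called under any alternative, while the genes called numbered 26 with the replicate block, 29 with a block for array set (62.1% of them higher, against 80% without it), 5 with only the 2 groups fitted, and 0 within replicates 1 and 2 or within replicates 3 and 4 (2260 and 1087 at an unadjusted p below 0.05 in limma), against 10. For CD24+ minus control CD172a+ cDCs, the genes were 762 with the replicate block and 3080 when array set was the block, against 1278, and the members 4 with the array set as a block and 3 on the second set, against 0. For CKO minus CD24+ cDCs, the members were 1 with the replicate block (Fosb, 0.82, adjusted p = 0.0462 in limma), 5 with the array set as a block and 3 on the second set, against 0, and the genes 3641 with the array set as a block, against 1429. The replicate block changed no other call of a member. In both comparisons with CD24+ cDCs it joins replicate 2 arrays that lie in different array sets. The test of unequal gaps in CKO and control cDCs called 46 of all probe sets and 1 gene with an intensity trend and robust prior, and 0 to 1 genes with 1 array left out, against 0. Of the genes called between the replicate pairs, 44.3% were higher, against 33.4% among genes above the median level. The cause of these changes was not tested.

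Signs turned only for differences that did not pass. For CKO minus control, these were Fos (-0.09) and Fosb (-0.23) on the second set and within replicates 3 and 4, and Egr2 (-0.02) and Nr4a1 (0.06) within replicates 1 and 2. For CD24+ minus control CD172a+, they were Fos (0.33) and Egr2 (0.03) with the array set as a block, and Fos (0.35), Egr2 (0.64) and Ier2 (0.15) on the second set. For CKO minus CD24+, they were Fos (-0.22) with the array set as a block, and Fos (-0.44), Egr2 (-0.43) and Ier2 (-0.38) on the second set. The unequal gap of Jun was 0.00 after centring. With 1 array left out, CKO minus control ran from -0.45 to 0.59 for Fos, -0.11 to 0.18 for Fosb, -0.23 to 0.34 for Jun, -0.03 to 0.57 for Egr1, -0.21 to 0.33 for Egr2, -0.32 to 0.16 for Atf3, -0.60 to 0.23 for Ier2 and -0.33 to 0.22 for Nr4a1. CD24+ minus control CD172a+ ran from -0.84 to 0.42 for Fos and -0.43 to 0.11 for Egr2, and CKO minus CD24+ from -0.30 to 0.96 for Fos and -0.04 to 0.69 for Ier2. The unequal gap ran from -0.92 to 0.09 for Fos, -0.14 to 0.13 for Jun, -0.13 to 0.08 for Junb, -0.15 to 0.32 for Egr1, -0.12 to 0.17 for Atf3, -0.52 to 0.30 for Ier2 and -0.55 to 0.14 for Nr4a1. RMA values carry no detection call, so how signal over background limits these genes is unknown, but the members' means lay above the median gene level of 5.49 to 5.54 in each group.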

Other observations

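The inflammatory genes of the early response, all named here after their values were seen, moved in both directions. Between the CD172a+ replicate pairs, the cytokine genes Il1a (adjusted p = 0.000142) and Il6 (adjusted p = 3.93e-05) and the neutrophil chemokine gene Cxcl2 (1.75, adjusted p = 0.000111) were higher in replicates 3 and 4. Il1a averaged 6.09 in replicates 3 and 4 and 3.60 in replicates 1 and 2, and since its lower mean, like that of Il6, lay below the median of the arrays, its difference is not an exact ratio. The maturation marker gene Cd83 (-1.54, adjusted p = 0.00376) and the adhesion molecule gene Icam1 (-0.97, adjusted p = 0.000606) were lower there, as Ccl3 and Ccl4 were, while Tnf (-0.20, adjusted p = 0.373) and Ptgs2 (-0.16, adjusted p = 0.431) did not pass. Between the subsets, with the array set as a block, 4 of the 12 genes were lower in CD24+ than in control CD172a+ cDCs, where 6.9% of all genes were lower. They were Ptgs2, the inducible cyclooxygenase gene (-4.11, adjusted p = 1.76e-06), Ccl3 (-1.43, adjusted p = 1.72e-05), Tnf (-1.01, adjusted p = 0.011) and Ccl4 (-0.74, adjusted p = 0.00252). Without the block Ptgs2 alone passed, and the adjusted p was 0.057 for Tnf, 0.102 for Ccl3 and 0.54 for Ccl4. All of these p-values are from limma.

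Related feedback genes, also named after their values were seen, moved in opposite directions between the replicate pairs. Gadd45g (-2.12, adjusted p = 0.00011) and Gadd45b (-1.03, adjusted p = 0.00044) were lower in replicates 3 and 4, and Gadd45a (0.67, adjusted p = 0.0145) was higher. The ERK and JNK phosphatase genes Dusp1 (-1.09, adjusted p = 0.00405) and Dusp2 (-0.93, adjusted p = 0.000162) were lower, while Dusp4 (0.53, adjusted p = 0.014) and Dusp8 (0.73, adjusted p = 0.00314) were higher, all in limma. Gadd45g averaged 5.52 in replicates 3 and 4, level with the highest array median. Dusp4 averaged 5.4 in replicates 1 and 2, below the array medians. The differences of Gadd45g and Dusp4 are therefore not exact ratios.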
